A study of Mus musculus with 2 samples.

Results

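Mir335, Mir483 and Mir675 are microRNA (miRNA) genes that lie inside the imprinted genes Mest, Igf2 and H19, and they were followed here in mouse lung at embryonic day 14.5 (E14.5). The 3 members were chosen from 1973 gene rows by their host genes and by no rule on their values. Earlier results of these data were known at that choice. Each member had a row in both libraries. Small RNA under 30 nt from total RNA of B6NCrl embryonic lung was sequenced (miRNA-seq) in 2 libraries, biological replicates 2 and 1 of 1 group, so no treatment, genotype or stage could be compared. The labels name a single pup's lung for each library and also a pooled sex, so the number of embryos per library was not settled, and they give a separate collection day for each replicate, which cannot be told apart from the replicate. Replicate 2 held 2332032 counts on the strand of a miRNA gene and replicate 1 held 5128214. Levels are counts per 1000000 of these (CPM), with mean ± SD over both libraries. A single count was worth 0.429 CPM in replicate 2 but 0.195 in replicate 1.

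A miRNA is cut from a hairpin in a longer transcript, first by Drosha in the nucleus and then by Dicer in the cytoplasm, and 1 strand of the resulting duplex guides Argonaute to messenger RNAs through its seed, bases 2 to 8. Imprinted genes are transcribed mainly from the copy inherited from 1 parent. Mest, which encodes a hydrolase-like protein of embryonic mesoderm, and Igf2, a fetal growth factor, are expressed from the paternal copy, whereas the noncoding RNA H19, which shares enhancers with Igf2, is expressed from the maternal copy. Hosts and miRNAs of this kind are known for effects on fetal and placental growth.

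Each gene gives a miRNA on both arms of its hairpin, and these sequences are shown because the deposited counts are sums over whatever reads fell on a hairpin, so that the arms cannot be separated in the values that follow. All 3 genes matched the RefSeq table of mouse miRNAs (build GRCm38.p6, the sequence of mm10). The 6 mature sequences are written 5′ to 3′ with the seed in capitals.
miR-335-5p: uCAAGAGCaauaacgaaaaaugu
miR-335-3p: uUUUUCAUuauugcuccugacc
miR-483-5p: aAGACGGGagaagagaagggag
miR-483-3p: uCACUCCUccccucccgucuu
miR-675-5p: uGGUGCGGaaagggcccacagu
miR-675-3p: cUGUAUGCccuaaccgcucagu

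The 6 seeds differed from each other, and for each arm 0 other genes of the table's 1005 hairpin genes carried a mature miRNA with the same seed, so the 3 genes form no seed family. In human breast cancer cells miR-335-5p is known to restrain metastasis through SOX4 and tenascin C. In the mouse placenta, release of miR-675 from H19 is known to limit growth, with Igf1r among its targets. The miR-483 arms are known from human Wilms tumour, where they rise together with IGF2.

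The hairpins are shown with the mature arms in capitals, because they are the features on which reads were counted and because they differ in base composition.
Mir335: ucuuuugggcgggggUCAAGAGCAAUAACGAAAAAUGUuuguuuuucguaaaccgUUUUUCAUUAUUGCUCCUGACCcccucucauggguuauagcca
Mir483: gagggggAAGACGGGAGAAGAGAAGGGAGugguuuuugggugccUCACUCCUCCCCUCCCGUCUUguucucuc
Mir675: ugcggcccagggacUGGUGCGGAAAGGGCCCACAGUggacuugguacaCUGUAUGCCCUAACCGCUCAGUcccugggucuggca

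The Mir335 hairpin (98 nt) had a GC content of 42.9%, and 55 of 280 hairpins of detected genes were lower (detected means 10 counts or more in each library). The Mir483 hairpin (73 nt) had 58.9% GC, with 232 of the 280 lower, and the Mir675 hairpin (84 nt) had 63.1%, with 255 lower, against a median of 50.5%. The fold predicted with RNAfold had a free energy of -0.452 kcal/mol per nt for Mir335, -0.463 for Mir483 and -0.667 for Mir675, against a median of -0.435. The predicted Mir675 hairpin was therefore the most stable of the 3, and 4 of the 280 hairpins lay below it. These are computed properties of the reference sequence and were not measured in the libraries.

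None of the 3 hairpins shared a stretch of 20 nt with another hairpin in the table (0 for each). The closest ungapped match of a mature arm to another hairpin had 8 mismatches for miR-335-5p, 7 for miR-335-3p, 5 for miR-483-5p, 4 for miR-483-3p, 5 for miR-675-5p and 7 for miR-675-3p. Among annotated mouse transcripts, the arms of Mir335 and Mir483 occurred exactly only in their own hairpin transcripts, and those of Mir675 also in H19, its host. Other places in the genome were not searched. Multimapping reads, which the deposited tables assign to no gene, were 33.1% of reads in replicate 2 and 32.9% in replicate 1, and how many came from these hairpins is not known.

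The 3 hairpins sit differently in their hosts. In mm10 coordinates Mir335 (ENSMUSG00000065501.1) lies at chr6:30741299-30741396 on the plus strand. It falls in the same intron of 1316 nt in 7 of 11 annotated Mest transcripts, intron 3 of the transcript with 13 exons, 474 nt after the upstream exon and 744 nt before the next one, and outside the other transcripts. Mir483 (ENSMUSG00000070140.1) lies at chr7:142654924-142654996 on the minus strand, in an intron of 1205 nt in 7 of 9 Igf2 transcripts, intron 2 in a transcript with 4 exons, and also within the overlapping annotated gene Gm49394. Mir675 (ENSMUSG00000076275.1) lies at chr7:142577064-142577147 on the minus strand. It is part of exon 1 of the longest spliced H19 RNA (2286 nt), in which it begins at base 997, so its sequence is part of the mature host RNA, unlike those of Mir335 and Mir483. Of 7 H19 transcripts 3 hold it in an exon, 1 in an intron and 3 end outside it. Mir483 and Mir675 are each other's nearest counted miRNA gene, 77.8 kb apart, and the nearest to Mir335 is Mir29a, at 321 kb.

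**Figure D1:**
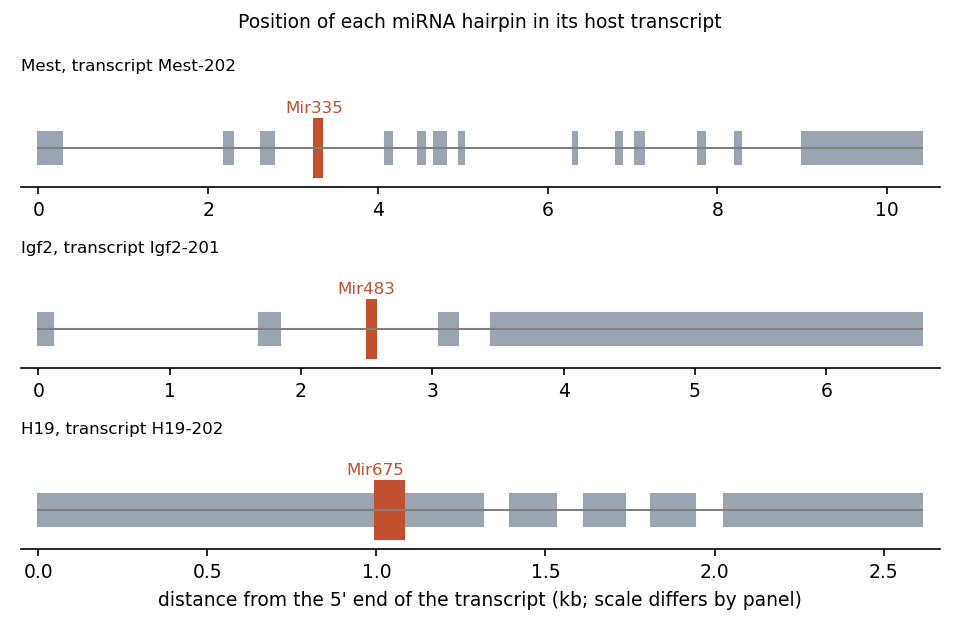
Position of the Mir335, Mir483 and Mir675 hairpins (red) in 1 annotated transcript of each host, with exons as grey boxes and introns as lines; the horizontal axis is the distance from the transcript's 5′ end in kb, with a different scale in each panel. Mir335 and Mir483 fall between exons, and Mir675 falls inside exon 1 of H19.

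The libraries carried miRNAs that mark epithelium, endothelium and smooth muscle. These markers were set against the tissue label only and cannot identify the organ by themselves. All 5 epithelial markers of the miR-200 family passed 10 counts in both libraries, summing to 33730 CPM (replicate 2) and 33294 CPM (replicate 1). The endothelial marker Mir126a stood at 58438 and 76033 CPM in replicates 2 and 1, and the smooth muscle markers Mir143 and Mir145a summed to 62023 and 79791 CPM. Of other tissues, the erythroid markers (2 of 2 counted) summed to 392 CPM in replicate 2 and to 497 CPM in replicate 1, and the liver marker Mir122 to 39.5 and 22.4 CPM. Heart muscle markers (3 of 3 counted) summed to 42.0 CPM in replicate 2 and 361 CPM in replicate 1, and skeletal muscle markers (1 of 3 counted) to 14.2 and 7.02 CPM. No marker was at 0 in both libraries (0 in every list).

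All 3 genes were detected, from the top of the libraries to below their median. Mir335, the miRNA of Mest, had 160362 counts (68765 CPM) in replicate 2 and 310319 counts (60512 CPM) in replicate 1, a mean of 64639 ± 5836 CPM (SD, n = 2). Its share of all gene-strand miRNA counts was 6.88% in replicate 2 (95% exact binomial interval 6.84 to 6.91) and 6.05% in replicate 1 (6.03 to 6.07). These intervals do not overlap, but they describe counting error alone and hold no variation between libraries. Reads copied by PCR are not separate molecules, so the intervals may understate even the counting error.

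Mir483, the miRNA of Igf2, had 2449 counts in replicate 2 and 5567 counts in replicate 1. This corresponds to 1050 CPM (exact interval 1009 to 1093) in replicate 2 and 1086 CPM (1057 to 1114) in replicate 1, with a mean of 1068 ± 25.04 CPM (SD, n = 2). The intervals overlap, and its SD was 2.34% of the mean, against 9.03% for Mir335. This order depends on scaling. With the TMM-scaled library sizes used below, the log2 ratio between replicates was -0.14 for Mir483 and 0.10 for Mir335.

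Mir675, the miRNA of H19, had 227 counts in replicate 2 and 438 counts in replicate 1. This corresponds to 97.3 CPM (exact interval 85.1 to 111) in replicate 2 and 85.4 CPM (77.6 to 93.8) in replicate 1, with a mean of 91.4 ± 8.44 CPM (SD, n = 2). Both values lay far above the level of 3 counts, the limit that a count of 0 allows, which came to 1.29 CPM (replicate 2) and 0.585 CPM (replicate 1). With these low counts its level was the least precise of the 3, and its intervals overlap. In a whole lung, fewer cells of a type and less RNA per cell cannot be told apart at any of these levels.

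**Figure D2:**
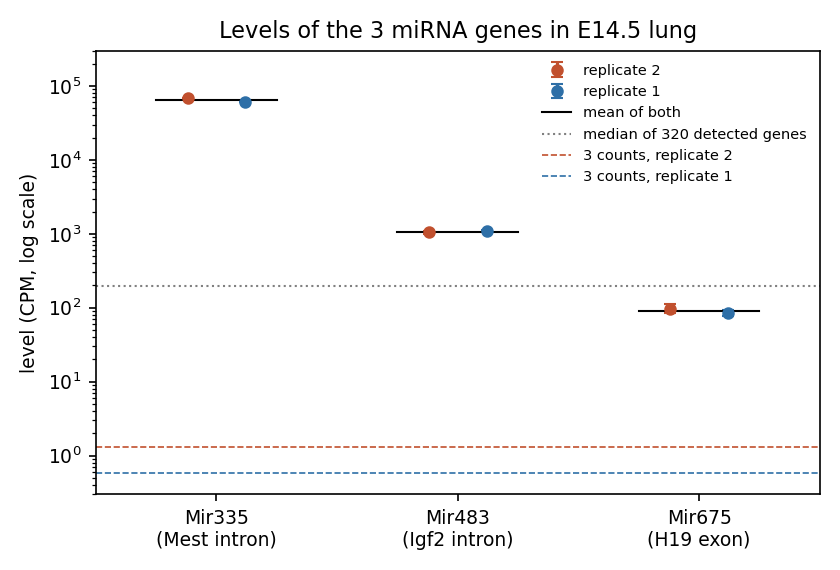
Level of Mir335, Mir483 and Mir675 in CPM on a log axis, with replicate 2 (red) left of replicate 1 (blue), 95% exact binomial intervals as error bars where they exceed the symbol, and the mean as a black line. Mir335 lies at 68765 and 60512 CPM in replicates 2 and 1, Mir483 near 1068 CPM and Mir675 near 91.4 CPM, below the dotted median of 320 detected genes (195 CPM); the dashed lines are the levels of 3 counts.

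Nearly all reads at the 3 genes stood in 1 strand column. The deposited tables name no column. The first of the 2 strand columns was set as the gene's strand, and it held the larger total. Which strand it is was not tested. The column then taken as the opposite strand held 1 read at Mir335 in replicate 2 and 2 reads in replicate 1, and 0 reads at Mir483 and Mir675 in both. Over all genes this column held 2.82% of miRNA counts in replicate 2 and 2.85% in replicate 1.

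Within each library Mir335 exceeded Mir483, and Mir483 exceeded Mir675. The ratio of Mir335 to Mir483 was 65.5 (62.9 to 68.2) in replicate 2 and 55.7 (54.3 to 57.2) in replicate 1, with exact intervals in parentheses, a log2 ratio of 5.92 ± 0.16 (SD, n = 2). The ratio of Mir483 to Mir675 was 10.8 in replicate 2 (9.41 to 12.4) and 12.7 in replicate 1 (11.5 to 14.04), a log2 ratio of 3.55 ± 0.17. The ratio of Mir335 to Mir675 was 706 in replicate 2 (620.2 to 808) and 708 in replicate 1 (645 to 780), a log2 ratio of 9.47 ± 0.003. For both ratios to Mir675 the intervals of the libraries overlap, and the low SD of the last ratio is finer than counting error at 227 and 438 Mir675 counts can resolve. The Mir335 to Mir483 intervals do not overlap. With 2 libraries the smallest p of an exact sign test is 0.5, so these ratios carry no test, and they compare reads of different sequences, whose capture in a library was not measured.

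The joint share of the 3 genes was 6.99% in replicate 2 and 6.17% in replicate 1, with exact intervals of 6.96 to 7.02 and of 6.15 to 6.19, and a mean of 6.58% ± 0.582 (SD, n = 2). Mir335 supplied 98.4% of this in replicate 2 and 98.1% in replicate 1. Mir483 supplied 1.502% and 1.76% in replicates 2 and 1, and Mir675 0.139% and 0.138%. The joint share is therefore that of Mir335, and without it the mean was 0.116%.

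Against the rest of the libraries the 3 genes lay at the top, above the middle and below the middle. Of the 320 detected genes, 99.1% had a lower mean level than Mir335, 68.1% a lower one than Mir483 and 39.7% a lower one than Mir675. Relative to the median of those genes, 195 CPM, Mir335 was 331-fold and Mir483 5.48-fold as high, while Mir675 stood at 0.469 of it. Next to Mir335 in the order, Mir126a (67235 ± 12441 CPM) did not differ from it beyond their spread, whereas Mirlet7g (51133 ± 303) was lower than Mir335 in both libraries by more than either SD. Mir483 did not differ beyond the spread from Mir148a (1085 ± 100.2) above it or Mir16-2 (1066 ± 207) below it. The same held for Mir675 between Mir30c-1 (91.7 ± 0.0818) and Mir3074-1 (88.4 ± 17.5).

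By position in the genome, a miRNA gene was classed as exonic if any annotated exon of a same-strand host gene covered it, and otherwise as intronic. Under this rule Mir335 was the highest of 799 intronic miRNA genes, of which 153 were detected. Mir126a, which lies in Egfl7 and Gm20532 and had a higher mean (67235 CPM), fell in the exonic class, so this rank and the shares below rest on the rule. It supplied 15.8% of all counts of such intronic genes in replicate 2 and 14.6% in replicate 1, and Mirlet7g in Wdr82 came next. Mir483 stood at position 49 of the same class, whose detected genes had a median of 188 CPM. Mir675 stood at position 37 of 234 genes lying in a host exon, of which 61 were detected with a median of 129 CPM. Mir483 was thus above and Mir675 below the median of the detected genes of its own class.

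**Figure D3:**
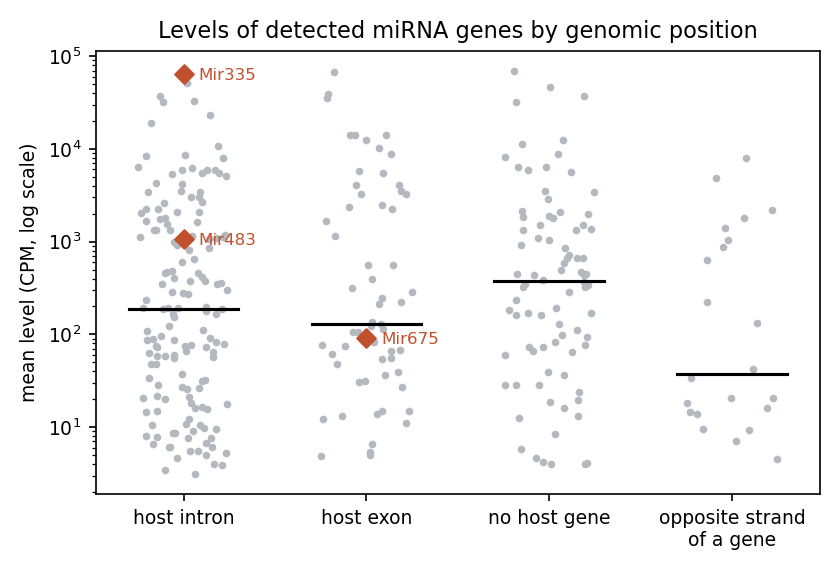
Mean level in CPM (log axis) of each detected miRNA gene, grouped by position relative to annotated genes, with the median of each group as a black line and Mir335, Mir483 and Mir675 as red diamonds. A gene covered by any annotated exon on its strand is placed as exonic. Mir335 is the highest gene of the intronic class at 64639 CPM. Mir483 lies above the intronic median of 188 CPM, and Mir675 lies below the exonic median of 129 CPM.

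The genes with the most similar pair of values were found by the distance in the plane of log2(CPM + 1) of the 2 libraries, over 320 genes and only 2 points each. Nearest to Mir335 were the endothelial Mir126a (distance 0.40), the smooth muscle Mir143 (0.42) and Mirlet7g (0.49). Mir126a and Mir143 went the other way between the libraries, with 58438 and 60488 CPM in replicate 2 and 76033 and 78321 CPM in replicate 1. Nearest to Mir483 were the X-linked Mir542 (0.04), Mir467e of the Sfmbt2 cluster (0.11) and Mir188 in Clcn5 (0.12). Nearest to Mir675 were Mir770 (0.07), Mir30c-1 in Nfyc (0.13) and Mir495 (0.15). Of these, Mir770 in an exon of Meg3 and Mir495 both belong to the imprinted Dlk1-Dio3 region on chromosome 12, whose miRNAs are expressed from the maternal copy. Mir770 had 238 counts (102 CPM) in replicate 2 and 433 counts (84.4 CPM) in replicate 1.

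Point estimates of the difference between replicate 2 and replicate 1 were small for all 3 genes. For the 404 genes whose counts summed to 10 or more, the split of counts between the libraries was set against TMM-scaled library sizes in an exact binomial test (two-sided), adjusted over all 404 by the Benjamini-Hochberg method. Such a test compares the reads of 2 libraries and not a condition. Of all genes tested 41.8% passed an adjusted p of 0.05, 17.8% higher and 24.0% lower in replicate 2. Of the 3 genes 2 passed, so a pass was a common outcome. Mir335 was higher in replicate 2 by a log2 ratio of 0.10 (interval 0.09 to 0.10, exact binomial adjusted p = 4.32e-100). Mir483 was lower there, at -0.14 (interval -0.21 to -0.07, exact binomial adjusted p = 0.000293).

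Mir675, at 0.10, did not pass (interval -0.14 to 0.33, exact binomial adjusted p = 0.583). Its point estimate equalled that of Mir335 to 2 decimals, with an interval that includes 0. The absolute log2 ratio was below the median of all tested genes, 0.23, for each of the 3. The upper limit for Mir675, 0.33, exceeds that median, so a larger difference is not excluded for it. That median also covers genes with few counts, whose ratios vary more by counting error alone. The median log2 ratio of the 3 was 0.10, against -0.03 over all genes tested. When the common dispersion of the 2 libraries, 0.0328, was added to counting error, all 3 had an exact adjusted p of 1, and 1 gene in all (0.248%) passed, the heart miRNA Mir208a. This dispersion was estimated from the same 2 libraries taken as 1 group, so it contains the difference under test. Few passes were therefore built in, and a missing pass carries little weight. The call for Mir483 also depended on scaling. With library totals its log2 ratio was -0.048 (exact binomial adjusted p = 0.302), since TMM set all log2 ratios lower by 0.09. The marker sums given above are CPM over library totals and were not TMM-scaled, unlike the call for Mir483. On library totals, those of endothelium, smooth muscle, erythroid cells and heart muscle were lower in replicate 2. Those of liver and skeletal muscle were higher there. The epithelial sums, 33730 CPM in replicate 2 and 33294 CPM in replicate 1, were so close that their order depends on the scaling. Whether tissue content has a part in the difference of Mir483 was not tested.

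**Figure D4:**
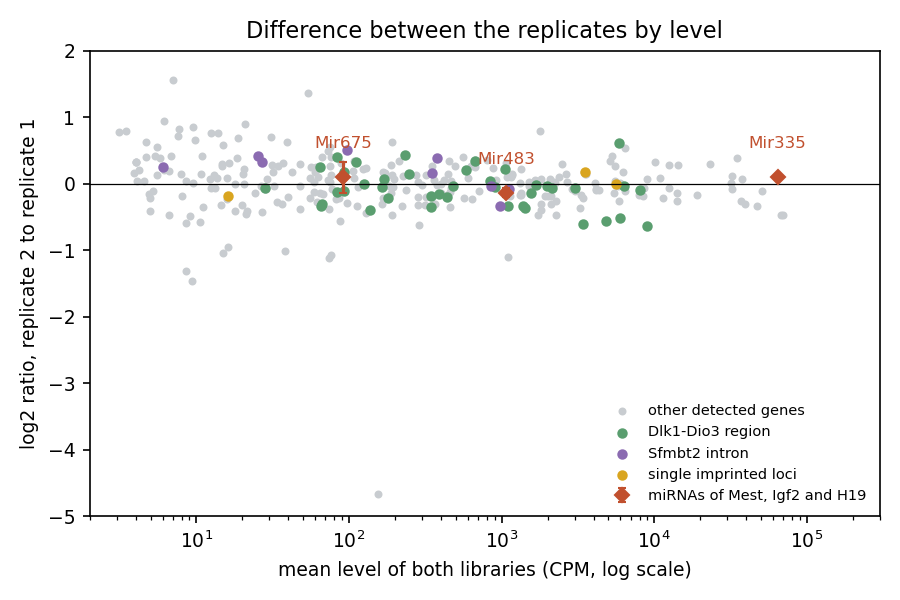
Log2 ratio (replicate 2 over replicate 1, TMM-scaled CPM) against the mean level in CPM (log axis) for detected genes, with Mir335, Mir483 and Mir675 as red diamonds and 95% exact intervals as bars, and other imprinted miRNA genes coloured by list. The 3 genes lie at 0.10, -0.14 and 0.10, near the line of no difference.

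Among other imprinted miRNA genes Mir335 was also the highest. With the 3 members, 156 genes of the lists for imprinted loci had a row and 56 were detected. They held 14.7% of counts in replicate 2 and 14.2% in replicate 1, of which Mir335 alone supplied 46.8% and 42.6%. Mir335 was 7.24-fold as abundant in the mean as the next gene, Mir411 (8925 ± 2330 CPM). Mir483 stood at position 20 of the 156 and Mir675 at position 46. The joint share of the 3 genes, 6.58% ± 0.582, was about that of the Dlk1-Dio3 list, 6.57% ± 0.320. That list share covers the 43 of its 49 names that had a row, so it is not the share of the whole region.

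Of 3 single imprinted loci, Mir296 and Mir298, which lie in the imprinted Gnas region, were higher than Mir483, and Mir184, reported as imprinted in mouse brain, was lower than Mir675. Mir296 had 5804 CPM in replicate 2 and 5462 CPM in replicate 1, and Mir298 had 3828 and 3199 CPM. Mir184 had 36 counts (15.4 CPM) in replicate 2 and 85 counts (16.6 CPM) in replicate 1. Between the libraries Mir298 passed the test, with a higher value in replicate 2 (log2 ratio 0.17, exact binomial adjusted p = 4.44e-18), and Mir296 (-0.002) and Mir184 (-0.18) did not. A pass was common, at 41.8% of all genes tested.

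In the Dlk1-Dio3 list, 25 of 41 tested genes passed, 7 higher and 18 lower in replicate 2, with a median log2 ratio of -0.07, against 41.8% passing over all genes tested (17.8% higher, 24.0% lower). With the common dispersion, estimated from these same libraries, added to counting error, 0 of them passed, against 0.248% of all genes tested. Its leading genes were Mir411 (log2 ratio -0.63), Mir127 (-0.09), Mir487b (-0.03) and Mir379 (-0.51), of which Mir487b did not pass. In the Sfmbt2 intron, a paternally expressed cluster, 4 of 10 tested genes passed, 3 higher and 1 lower, with a median of 0.21, a share close to the 41.8% of all genes tested. With the common dispersion added, 0 passed here too. Its leading gene Mir467e (1125 ± 6.52 CPM) was close in level to Mir483, and Mir467d (980.7 ± 115), Mir467c (848 ± 24.5) and Mir669o (374 ± 87.2) followed. Levels in the Sfmbt2 list are uncertain because its copies share sequence.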

How the data were processed

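For each miRNA gene the authors deposited 3 raw counts per library, in which the first column equals the sum of the gene-strand and opposite-strand columns. The deposited readme names assembly mm10 and annotation M4. The aligner, counter and trimming are not given in these sources. The sums identified the column without regard to strand. The first of the 2 strand columns was set as the gene's strand, and it held the larger total. The gene-strand column was used, and the 4 summary entries stayed out (unmapped, multimapping, no feature and ambiguous: 11.7%, 33.1%, 2.44% and 0% of reads in replicate 2, 12.7%, 32.9%, 2.63% and 0% in replicate 1). Of 1973 identifiers 1894 matched GENCODE M21, which gave symbols, coordinates and hosts.

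The members and lists were chosen with earlier results of these data known. Named genes were the members, the 3 nearest to each in level, the single imprinted loci, the 4 highest of each other imprinted list, and markers; genes next in the order and Mir29a were named after their values were seen. The Dlk1-Dio3 list held 49 names, of which 43 matched a row. Intervals are 95% Clopper-Pearson and cover counting error only, as does the limit of 3 counts. For log2 ratios 1 CPM was added to each TMM-scaled value. The test was checked on simulated counts that held counting error only. That check therefore does not cover variation between replicates. The beta-binomial alternative used edgeR's common dispersion, estimated from the same 2 libraries taken as 1 group. Whether replicates share a technical source is not known beyond the labels. Tools were R 4.3.3, edgeR 4.0.16, DESeq2 1.42.0, Python 3.11.15, scipy 1.17.1 and ViennaRNA 2.7.2.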

Additional observations from a re-analysis of the deposited data

How the results depend on the processing

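Levels depended on the denominator. With multimapping, no-feature and ambiguous reads added to it, Mir335 stood at 37395 CPM, Mir483 at 617.6 CPM and Mir675 at 52.9 CPM, and the joint share at 3.81%. Mir483 moved beyond its small SD also without the most abundant gene in the denominator (1148 CPM) and in the column without regard to strand (1038 CPM). The joint share without Mir335 was 0.116%. Leaving out 1 replicate at a time gave 60512 to 68765 CPM for Mir335, 1050 to 1086 CPM for Mir483, 85.4 to 97.3 CPM for Mir675, a joint share of 6.17% to 6.99%, and log2 ratios of 5.80 to 6.03 for Mir335 to Mir483 and 3.43 to 3.67 for Mir483 to Mir675. The difference between replicates has no value without 1 of them.

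Between replicates, Mir335 (0.10) and Mir483 (-0.14) no longer passed with the common dispersion added (exact adjusted p = 1 for both), an alternative that by construction widens the error. That dispersion was estimated from the same libraries, so it contains the difference under test. Mir483 (-0.048) did not pass with library totals, which set the log2 ratios of all genes higher by a median of 0.09 than TMM. The log2 ratio spanned 0.05 to 0.18 for Mir335, -0.18 to -0.048 for Mir483 and 0.05 to 0.19 for Mir675 over scalings, with no sign reversed. Over these scalings the exact binomial adjusted p for Mir483 ranged from 4.54e-07 (DESeq2 size factors) to 0.302 (library totals). Calls numbered 169 (72 higher, 97 lower in replicate 2), against 1 with the dispersion (0 higher, 1 lower). With library totals 112 were higher, 63.3% of calls against 42.6% with TMM and 36.3% with DESeq2 size factors. Calls among single imprinted loci were 2 with library totals and 2 with DESeq2 size factors, where 43.8% and 41.6% of all genes tested passed. With the dispersion 0 passed there, 0 in the Dlk1-Dio3 region and 0 in the Sfmbt2 intron, against 0.248% of all genes tested. No paired analysis was possible because there is 1 group. Depth limits Mir675 most.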
